A study of Mus musculus with 6 samples.

Results

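Cells detect double-stranded RNA through a small set of proteins, and the genes of 8 of them, the RNA sensors and their closest partners, were followed here in cultured mouse astrocytes that received an active BRAF. They were taken by name: Ddx58 (RIG-I), Ifih1 (MDA5), Dhx58 (LGP2), Mavs, Tlr3, Eif2ak2 (PKR), Adar and Trafd1, which are 8 of the 55357 genes listed. All 8 were among the 15280 genes with a mean of at least 10 that were tested. The names were chosen with earlier results of these cultures known, so their counts and median describe the genes and are not an independent test. Astrocytes from the cortex of C57BL/6 mouse embryos at embryonic day 18 were either transfected with a plasmid that makes FLAG-tagged BRAF K499E from the CMV promoter and collected 48 hours later (KE, n = 3), or left without any plasmid (NT, n = 3). BRAF KE is a variant found in cardiofaciocutaneous syndrome that raises signalling through the RAF, MEK and ERK kinases. The CMV promoter is active in most cell types, so the plasmid is not limited to astrocytes. The samples analysed here include neither BRAF WT nor an empty plasmid, and delivery of plasmid DNA therefore cannot be told apart from BRAF KE. The labels number the cultures within each group without saying that they were prepared separately, so the p-values measure the spread between these samples, which may be technical.

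RNA of viruses, and some RNA of the cell itself, forms double strands or carries unusual ends, and these are the features that the sensors read. RIG-I and MDA5 are helicases of the cytosol that bind such RNA and pass the signal to MAVS, an adaptor on the mitochondrial membrane, while LGP2 resembles them but lacks the signalling domains and tunes their activity. TLR3 reads double-stranded RNA inside endosomes, PKR is a kinase that stops translation by phosphorylating eIF2α when it binds double-stranded RNA, and ADAR1, the product of Adar, edits adenosine to inosine in double-stranded RNA and so weakens its pairing. TRAFD1 is a zinc finger protein described as a brake on these routes. Most of these genes are known targets of interferon, and astrocytes are among the brain cells that respond to it.

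The labels were checked first. Braf was at 35025, 34933 and 40978 normalized counts in KE and 925, 811 and 946 in NT, a log2 fold change (log2FC) of 5.37 (SE 0.08, limma adjusted p = 2.11e-11). The table does not separate plasmid from chromosomal Braf. Totals of normalized counts lay between 30472429 and 30895529, and the depth, estimated from the value that 1 read takes in each culture, between approximately 24500000 reads in KE replicate 2 and 34300000 in KE replicate 1. Markers are counted as higher or lower at a limma adjusted p under 0.05. By this rule 25.3% of all tested genes were higher and 26.0% lower. Of 12 astrocyte markers, 12 were tested and their summed level was 215307 to 222831 in KE and 157289 to 168284 in NT, with 8 higher and 2 lower. The 2 lower ones were Gja1 and Fgfr3. S100b, one of the defining markers, was low, with a mean of 17.7 in KE and 26.7 in NT. Its groups overlapped and it was not called (log2FC -0.60, limma adjusted p = 0.147). All 15 microglia markers were lower in KE, with summed levels of 5554 to 7683 in KE and 46719 to 55159 in NT, a median log2FC of -3.31 (range -4.12 to -0.88) and none at 0. Of 8 oligodendrocyte lineage markers 7 were tested and 6 were lower. The sums over all 8 were 7651 to 9024 in KE and 12196 to 12708 in NT. Most of this was Olig2 (mean 6094 in KE and 8927 in NT). Of 8 neuron markers 6 were tested, and 1 was higher and 2 lower. The sums over all 8 were 6704 to 7116 against 8736 to 9395, most of which was Map2 (mean 4965 in KE and 7077 in NT). Of 7 mural and fibroblast markers 2 were higher and 3 lower, with sums of 2662 to 2745 against 3301 to 4277, and Acta2 had the widest gap (mean 651 against 1694). Of 6 endothelial markers 3 were tested and 2 were lower. The sums over all 6 were 237 to 302 against 337 to 496. In bulk RNA, fewer cells of a type and less RNA per cell cannot be told apart. The part of these markers in the results that follow was not tested.

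The promoters of RIG-I, MDA5 and PKR are shown here because each holds the core of an interferon-stimulated response element (ISRE), a short sequence found in the promoters of many interferon-inducible genes, and the promoter of Mavs is shown as the one of the adaptor that moved least. Each window runs from 250 bases before to 50 bases after a start site, 5′ to 3′ along the gene's own strand, and comes from RefSeq's table for GRCm38.p6. A search for its exact sequence placed each at 1 position in GRCm39. The windows lie at chr4:40239776-40240075 (minus strand) for Ddx58, chr2:62476550-62476849 (minus strand) for Ifih1, chr17:79189952-79190251 (minus strand) for Eif2ak2 and chr2:131075733-131076032 (plus strand) for Mavs. Capitals mark the ISRE core.
Ddx58: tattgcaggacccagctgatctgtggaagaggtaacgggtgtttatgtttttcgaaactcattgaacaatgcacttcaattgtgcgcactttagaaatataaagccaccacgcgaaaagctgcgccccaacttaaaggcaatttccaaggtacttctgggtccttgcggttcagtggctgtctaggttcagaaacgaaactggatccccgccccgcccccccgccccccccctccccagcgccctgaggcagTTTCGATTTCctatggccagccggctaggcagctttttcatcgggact
Ifih1: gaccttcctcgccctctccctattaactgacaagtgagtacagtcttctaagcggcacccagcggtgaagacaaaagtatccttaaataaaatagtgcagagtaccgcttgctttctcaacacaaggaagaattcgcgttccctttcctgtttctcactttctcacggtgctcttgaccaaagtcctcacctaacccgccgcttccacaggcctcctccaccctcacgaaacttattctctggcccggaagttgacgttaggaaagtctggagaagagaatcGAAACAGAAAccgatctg
Eif2ak2: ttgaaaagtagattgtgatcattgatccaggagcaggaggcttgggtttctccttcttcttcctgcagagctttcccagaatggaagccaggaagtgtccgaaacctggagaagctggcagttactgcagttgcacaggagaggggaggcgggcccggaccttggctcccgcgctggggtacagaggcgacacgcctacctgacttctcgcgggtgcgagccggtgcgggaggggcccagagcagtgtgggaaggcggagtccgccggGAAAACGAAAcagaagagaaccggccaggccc
Mavs: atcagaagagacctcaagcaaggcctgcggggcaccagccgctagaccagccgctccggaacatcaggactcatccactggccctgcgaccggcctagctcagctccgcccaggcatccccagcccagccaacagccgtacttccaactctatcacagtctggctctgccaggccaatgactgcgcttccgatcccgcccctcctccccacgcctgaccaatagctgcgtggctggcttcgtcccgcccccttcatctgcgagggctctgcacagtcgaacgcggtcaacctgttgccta

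The core searched was GAAANNGAAA, or TTTCNNTTTC when read on the other strand, and base 1 is the first base of the transcript. In Ddx58 it was present as TTTCGATTTC from base 3 to base 12, which places the core on the strand opposite to the gene. In Ifih1 it was GAAACAGAAA from base 33 to base 42, and in Eif2ak2 GAAAACGAAA from base 19 to base 28. These cores therefore all lay just after the start site. RefSeq's table held windows for 7 of the 8 genes, 10 windows in all, and 3 of the 7 genes had the core, against 3.99% of the 27025 genes in the table. The windows of Mavs, Tlr3, Adar and Trafd1 did not contain these letters. The gamma-activated site TTCNNNGAA, which reads the same on both strands, was found in 2 of the 7 genes and in 9.55% of all genes. It was TTCCCAGAA from base -178 to base -170 in Eif2ak2 and TTCAAGGAA from base 23 to base 31 in the third of the Adar windows (chr3:89637775-89638074, plus strand). No overlap with the ISRE core occurred in either. A match describes the letters in the window and is not evidence of binding.

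All 8 genes were higher in KE than in NT. The log2FC ran from 0.23 for Mavs to 2.20 for Ifih1, with a median of 1.53, where the median over all tested genes was 0.00. Leaving Mavs aside, the other 7 genes rose by at least 0.99 and lay above the 90th percentile of tested genes, which was 0.66. Calling a gene at an adjusted p under 0.05 in limma's fit over all tested genes, 8 of 8 were called higher, while 25.3% of tested genes were called higher, 26.0% lower and 51.3% in either direction. The 3 KE cultures lay above the 3 NT cultures for 8 of 8 genes, against 30.1% of tested genes with KE above and 59.9% without overlap in either direction. Since calls are so common in this comparison, the sizes of the changes carry more information than the count.

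**Figure D1:**
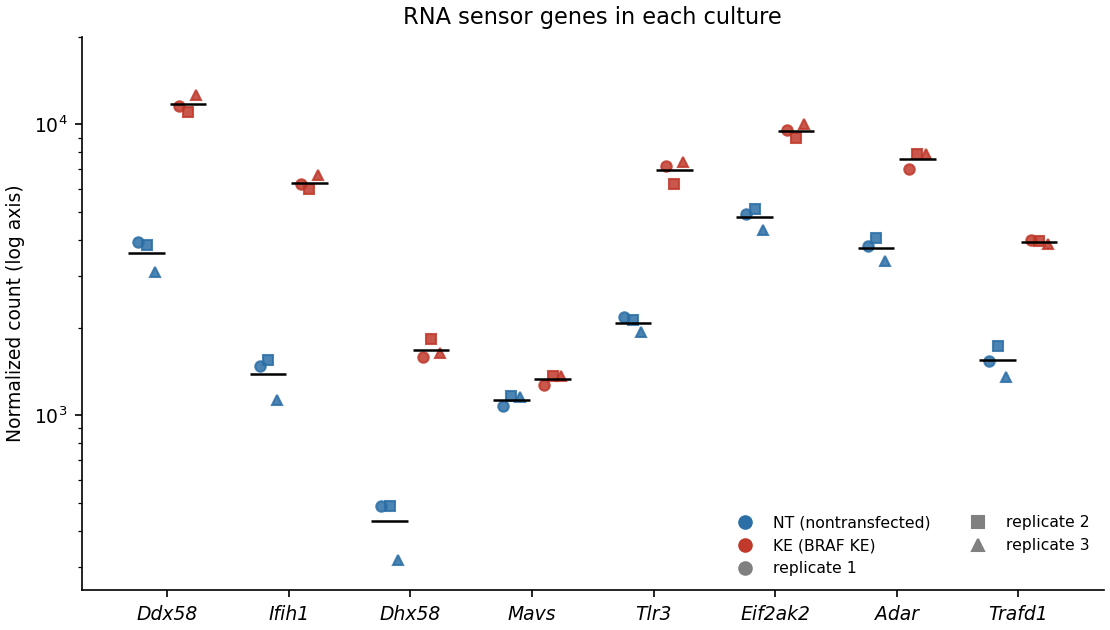
Normalized counts (vertical axis, log scale) of the 8 RNA sensor genes in each of 3 KE and 3 NT cultures, 1 point per culture, with the bar at the group mean. The KE points sit above the NT points for all 8 genes, with the widest gap for Ifih1 (6292 against 1385) and the narrowest for Mavs (1330 against 1131).

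Ddx58 (ENSMUSG00000040296, GRCm39 chromosome 4, 40203772 to 40239852, minus strand) encodes RIG-I, which recognises short double-stranded RNA with a triphosphate at its end. Its normalized counts were 11589, 11043 and 12573 in KE replicates 1, 2 and 3 and 3932, 3833 and 3105 in NT replicates 1, 2 and 3. The lowest KE culture was well above the highest NT culture, and NT replicate 3 was the lowest of all. The means of 11735 ± 775 and 3623 ± 452 (SD, n = 3) gave a log2FC of 1.70 (SE 0.09, 95% CI 1.51 to 1.90, adjusted p = 8.15e-08), a 3.25-fold rise. Of all tested genes, 1.81% had a higher log2FC.

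Ifih1 (ENSMUSG00000026896, chromosome 2, 62425714 to 62476607, minus strand) encodes MDA5, which assembles along long double-stranded RNA. It stood at 6217, 5981 and 6676 normalized counts in KE, where NT had 1477, 1552 and 1125. This was the largest rise among the sensors. The means were 6292 ± 354 and 1385 ± 228 (SD, n = 3), with a log2FC of 2.20 (SE 0.11, 95% CI 1.96 to 2.43, adjusted p = 4.82e-08), or 4.58-fold. A higher log2FC was found for 1.03% of tested genes.

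Dhx58 (ENSMUSG00000017830, chromosome 11, 100585710 to 100595097, minus strand) encodes LGP2, the family member that regulates the other two. KE cultures had 1583, 1820 and 1629 normalized counts and NT cultures 488, 488 and 318. The groups were far apart, although NT replicate 3 lay well under the other two NT cultures and the spread in NT, a coefficient of variation of 22.8%, was the widest of the 8 genes. Means of 1677 ± 125 and 431 ± 98.3 (SD, n = 3) corresponded to a log2FC of 1.98 (SE 0.15, 95% CI 1.66 to 2.30, adjusted p = 1.04e-06), or 3.95-fold.

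Mavs (ENSMUSG00000037523, chromosome 2, 131075442 to 131096740, plus strand), the adaptor through which RIG-I and MDA5 signal, moved little. It was at 1265, 1363 and 1361 normalized counts in KE and 1076, 1160 and 1156 in NT. The lowest KE culture exceeded the highest NT culture by a small margin, and replicate 1 was the lowest in both groups. The means of 1330 ± 56.3 and 1131 ± 47.3 (SD, n = 3) gave a log2FC of 0.23 (SE 0.07, 95% CI 0.08 to 0.38, adjusted p = 0.0137), or 1.18-fold, and 29.2% of tested genes had a higher log2FC. Without NT replicate 1 the log2FC was 0.20 and the call was lost (adjusted p = 0.0537).

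Tlr3 (ENSMUSG00000031639, chromosome 8, 45848702 to 45864117, minus strand) encodes the endosomal receptor, which uses TRIF rather than MAVS. The KE cultures held 7209, 6229 and 7445 normalized counts and the NT cultures 2168, 2120 and 1933. The NT cultures lay close together and KE replicate 2 was the lowest of its group. The log2FC was 1.74 (SE 0.08, 95% CI 1.58 to 1.91, adjusted p = 2.54e-08) between means of 6961 ± 645 and 2074 ± 124 (SD, n = 3), a 3.35-fold rise that 1.72% of tested genes exceeded.

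Eif2ak2 (ENSMUSG00000024079, chromosome 17, 79159972 to 79190012, minus strand) encodes PKR. Its values were 9528, 8944 and 9996 normalized counts in KE and 4929, 5100 and 4313 in NT. PKR began from the highest count of the 8 genes in NT and rose less than the RIG-I-like receptors. Means of 9490 ± 527 and 4781 ± 414 (SD, n = 3) gave a log2FC of 0.99 (SE 0.07, 95% CI 0.83 to 1.15, adjusted p = 9.16e-07), or 1.99-fold.

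Adar (ENSMUSG00000027951, chromosome 3, 89622329 to 89660753, plus strand) encodes ADAR1, whose editing keeps the cell's own double-stranded RNA from being read by MDA5 and PKR. Normalized counts were 7028, 7918 and 7885 in KE and 3811, 4071 and 3396 in NT. The log2FC was 1.02 (SE 0.08, 95% CI 0.85 to 1.19, adjusted p = 1.08e-06), a 2.03-fold rise between means of 7611 ± 505 and 3759 ± 341 (SD, n = 3). Adar makes a long, interferon-inducible form and a short form from different promoters, and gene-level counts do not separate them.

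Trafd1 (ENSMUSG00000042726, chromosome 5, 121507840 to 121524089, minus strand) was at 4009, 3971 and 3863 normalized counts in KE and 1540, 1730 and 1357 in NT. The KE cultures differed little from one another, with a coefficient of variation of 1.93%, the narrowest of the 8 genes. The means of 3948 ± 76.1 and 1542 ± 187 (SD, n = 3) gave a log2FC of 1.36 (SE 0.08, 95% CI 1.18 to 1.54, adjusted p = 2.15e-07), or 2.57-fold.

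Many of the genes ranked the NT cultures alike, while their order of the KE cultures varied. NT replicate 3 was the lowest NT culture for 7 of the 8 genes, Mavs being the exception, and NT replicate 2 was the highest for 5. In KE, replicate 3 was highest for 4 genes and replicate 2 lowest for 4 and highest for 3. The coefficient of variation was 1.93% to 9.26% in KE and 4.19% to 22.8% in NT, and it was larger in NT for 6 genes. Over the 6 cultures, Pearson's r between the log2 values of the genes other than Mavs was 0.978 to 0.999, and between Mavs and the others 0.883 to 0.929. These r values mostly restate the separation of KE from NT, which all cultures share. The 5 genes outside the set whose log2 values followed Ddx58 most closely, among 12064 genes with a mean of at least 100, were Gm4951 (r = 0.9997, log2FC 2.80), Samd9l (r = 0.9997, log2FC 1.84), Gbp9 (r = 0.9996, log2FC 2.44), Trim30a (r = 0.9993, log2FC 2.16) and Ifi44 (r = 0.9993, log2FC 3.42).

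Whether the sensors rose in step was examined with log2 ratios of normalized counts between 2 genes of the same culture, which do not depend on how cultures are scaled. Of the 8 pairs compared, 5 had ratios that did not overlap between the groups. No share over other gene pairs was computed, and 59.9% of single tested genes did not overlap either, so this count is not particular to the sensors. The exact permutation test, two-sided, cannot go below p = 0.1 with 3 cultures against 3, and the lowest p adjusted over the 8 pairs was 0.16, so none of the differences could pass the threshold.

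The first pairs set the receptors against each other. The log2 ratio Ifih1/Ddx58 was -0.90, -0.88 and -0.91 in KE and -1.41, -1.30 and -1.46 in NT, a difference of 0.49 (exact p = 0.1). For Dhx58/Ddx58 the difference was 0.28 (exact p = 0.1), with ratios of -2.87, -2.60 and -2.95 in KE and -3.01, -2.97 and -3.28 in NT, so that the lowest KE culture and the highest NT culture nearly met. That difference fell to 0.18 without KE replicate 2 (exact p = 0.3) and likewise without NT replicate 3 (exact p = 0.2). For Dhx58/Ifih1 the groups overlapped, with a difference of -0.21 (exact p = 0.2).

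The next pairs set the adaptor against the receptors. The log2 ratio Mavs/Ddx58 was -3.19, -3.02 and -3.21 in KE and -1.87, -1.72 and -1.42 in NT, a difference of -1.47 (exact p = 0.1). For Mavs/Ifih1 the ratios were -2.30, -2.13 and -2.29 in KE and -0.46, -0.42 and 0.04 in NT, a difference of -1.96 (exact p = 0.1). In NT replicate 3 the normalized count of Mavs was thus slightly above that of Ifih1, while in each KE culture it was far under it. Trafd1/Ddx58 differed by -0.34 (exact p = 0.1), from a mean of -1.23 ± 0.11 in NT to -1.57 ± 0.12 in KE (SD, n = 3). Tlr3/Ddx58, with a difference of 0.04 (exact p = 0.6), and Eif2ak2/Adar, with a difference of -0.03 (exact p = 0.8), overlapped between the groups, and the sign of the latter depended on KE replicate 2, without which it was 0.04. The Tlr3/Ddx58 difference lay between 0.01 and 0.10 when 1 culture was left out, the highest without NT replicate 3 (exact p = 0.2).

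**Figure D2:**
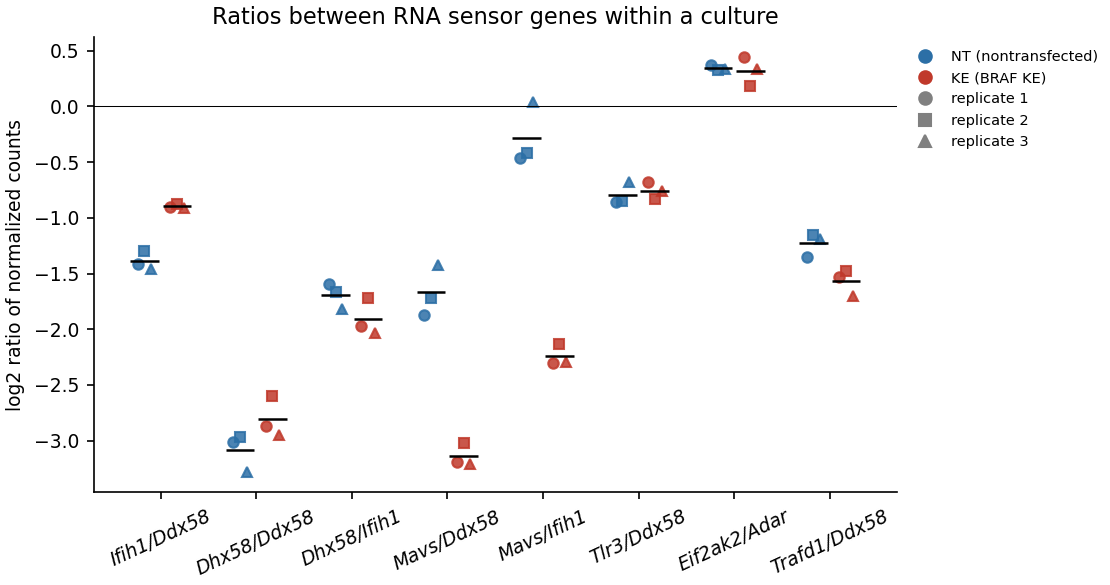
Log2 ratio of the normalized counts of 2 RNA sensor genes within a culture (vertical axis) for 8 pairs, 1 point for each of the 3 KE and 3 NT cultures, with the bar at the group mean. The Mavs/Ddx58 and Mavs/Ifih1 ratios are the furthest apart between KE and NT (differences of -1.47 and -1.96), while the Tlr3/Ddx58 and Eif2ak2/Adar points overlap.

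Levels were compared between genes as normalized counts per kilobase of annotated exon. In NT the order of these levels was Eif2ak2 (880 ± 76.2), Adar (462 ± 41.9), Ddx58 (429 ± 53.5), Tlr3 (388 ± 23.2), Trafd1 (257 ± 31.1), Ifih1 (154 ± 25.3), Dhx58 (128 ± 29.1) and Mavs (99.4 ± 4.16, SD, n = 3 for each). The cultures of Adar and Ddx58, of Ddx58 and Tlr3, of Ifih1 and Dhx58, and of Dhx58 and Mavs overlapped, so these neighbours were not separated by their spread. In KE the order was Eif2ak2 (1750 ± 97.0), Ddx58 (1390 ± 91.8), Tlr3 (1300 ± 121), Adar (936 ± 62.1), Ifih1 (700.0 ± 39.3), Trafd1 (657 ± 12.7), Dhx58 (497 ± 37.2) and Mavs (117 ± 4.95, SD, n = 3 for each). Here the cultures overlapped for Ddx58 and Tlr3 and for Ifih1 and Trafd1. On this length PKR was the first and the adaptor the last in both groups, and Adar came after Eif2ak2 in NT but after Ddx58 and Tlr3 in KE. The order rests on the length used, since with the exon length of the canonical transcript Ddx58 (3020) stood above Eif2ak2 (2180) in KE, and Mavs (229) stood above Dhx58 (179) in NT, where its cultures overlapped those of Ifih1 (233).

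Within the family of RIG-I-like receptors, Ddx58 made up 60.1%, 58.8% and 62.7% of the summed level per kilobase in the NT cultures and 54.2%, 52.1% and 54.9% in the KE cultures. The share of Ifih1 was 21.2%, 22.4% and 21.3% in NT and 27.3%, 26.4% and 27.3% in KE. Neither pair of groups overlapped. The share of Dhx58, 17.8% ± 1.55 in NT and 19.3% ± 1.95 in KE (SD, n = 3), overlapped between them. RIG-I therefore remained the most abundant transcript of the family per kilobase in each culture, with MDA5 holding a larger share in KE.

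PKR is 1 of 4 kinases that phosphorylate eIF2α, the others being HRI (Eif2ak1), PERK (Eif2ak3) and GCN2 (Eif2ak4), which respond to heme, to unfolded protein and to amino acid shortage. Its share of their summed level per kilobase was 68.9%, 68.0% and 65.0% in NT and 80.7%, 79.0% and 80.2% in KE. None of the other kinases passed the test, with log2FC of 0.12 for Eif2ak1 (adjusted p = 0.0872), -0.05 for Eif2ak3 (adjusted p = 0.653) and -0.10 for Eif2ak4 (adjusted p = 0.308). Among the ADAR enzymes, Adar accounted for 91.2% ± 0.828 in NT and 94.8% ± 0.28 in KE (SD, n = 3). Adarb1, which encodes ADAR2, was at 647 ± 53.5 normalized counts in KE and 559 ± 10.7 in NT (SD, n = 3) and did not pass the test (log2FC 0.21, adjusted p = 0.0622), and Adarb2 was under the filter on low values.

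**Figure D3:**
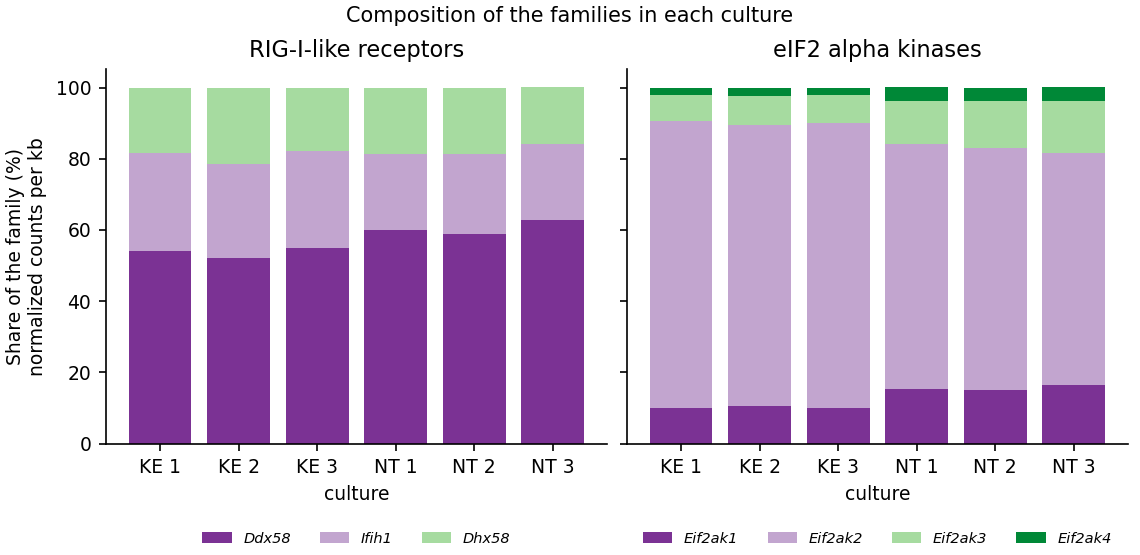
Share of each gene (vertical axis, percent) in the summed level per kilobase of its family, for RIG-I-like receptors and eIF2α kinases, in each of 3 KE and 3 NT cultures. The share of Ddx58 is lower in KE (53.7% against 60.5%) and those of Ifih1 (27.0% against 21.6%) and Eif2ak2 (80.0% against 67.3%) are higher.

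The genes around the sensors were described from 6 lists written from general knowledge, 110 genes in all, of which 105 passed the filter. Of these 105, 33 were called higher, 26 lower and 46 neither, and the median log2FC was 0.02. The tested neighbours were thus called higher in a proportion not far from the 25.3% of all tested genes, and their median was near that of all tested genes, 0.00.

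Among 22 regulators of RIG-I and MDA5, 7 were higher and 7 lower, with a median log2FC of -0.04. The rises included Ddx60, a helicase reported to assist RIG-I, which was at 3012, 2694 and 3166 normalized counts in KE and 783, 713 and 503 in NT (log2FC 2.17, SE 0.14, adjusted p = 3.35e-07). Ubiquitin ligases that activate RIG-I rose by different amounts. Rnf135 (Riplet) went from 308 ± 33.8 in NT to 1107 ± 36.3 in KE (log2FC 1.85, SE 0.10, adjusted p = 7.98e-08) and Trim25 from 3051 ± 220 to 6688 ± 317 (log2FC 1.13, SE 0.07, adjusted p = 1.86e-07, SD, n = 3). Mex3c, another such ligase, rose less (log2FC 0.32, adjusted p = 0.00195). Rnf125, a ligase that marks RIG-I for degradation, rose as well (log2FC 1.13, adjusted p = 6.53e-05). Mex3c and Rnf125 were named after their values were seen. The largest fall was that of Lrrc25, which is known mainly from myeloid cells and promotes removal of RIG-I, from 583, 565 and 401 in NT to 29.4, 54.2 and 32.1 in KE (log2FC -3.74, SE 0.23, adjusted p = 2.74e-07). It moved in the same direction as the microglia markers, and their part in its fall was not tested. Dhx9, a nuclear helicase that unwinds double-stranded RNA, fell by 0.54 on the log2 scale (SE 0.06, adjusted p = 3.18e-05) from 13996 ± 357 to 9659 ± 659 (SD, n = 3).

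Of 22 partners and regulators of MAVS, 21 were tested and 6 were higher and 3 lower, with a median log2FC of -0.07 and no log2FC above 0.70. Trim31 was at 0 in all cultures. Mul1 and Marchf5, ubiquitin ligases of the mitochondrial outer membrane, were higher, with log2FC of 0.70 (SE 0.07, adjusted p = 1.42e-05) and 0.56 (SE 0.05, adjusted p = 7.23e-06). Mfn2, a mitofusin that binds MAVS, was higher by 0.39 (adjusted p = 2.34e-04). Tomm70a, the import receptor that links MAVS to TBK1, was lower, at 4292, 3976 and 4252 normalized counts in KE against 5950, 5544 and 5651 in NT (log2FC -0.45, adjusted p = 6.03e-05). Fadd, a death domain adaptor, was near the threshold, with a log2FC of -0.22 (adjusted p = 0.0428) and adjusted p-values of 0.0756 to 0.11 in 5 of the 6 fits that left out 1 culture.

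On the TLR3 route, 5 of 15 genes were higher and 3 lower, with a median log2FC of -0.04. Ticam1, which encodes TRIF, the adaptor of TLR3, was at 582, 670 and 619 normalized counts in KE and 545, 547 and 505 in NT (log2FC 0.23, SE 0.09, adjusted p = 0.0462). This call was lost when any 1 culture other than KE replicate 1 was left out, with adjusted p-values of 0.0663 to 0.139, lowest in size without KE replicate 2 (log2FC 0.17). The adaptors of both routes, Mavs and Ticam1, therefore each had a log2FC of 0.23, while their receptors had log2FC of 1.70 or more. Wdfy1, which helps TRIF join TLR3, was higher by 0.48 (adjusted p = 6.30e-05), Scara3 by 0.48 (adjusted p = 4.42e-04) and Trim3, a ligase for TLR3, by 0.36 (adjusted p = 0.0019). Unc93b1, the chaperone that carries TLR3 to endosomes, was lower, at 1434, 1360 and 1316 in KE against 2335, 2793 and 2009 in NT (log2FC -0.78, SE 0.10, adjusted p = 8.48e-05). Lgmn, an endolysosomal protease, fell by 1.12 on the log2 scale (SE 0.07, adjusted p = 2.92e-07), from 7606 ± 553 to 3505 ± 224 (SD, n = 3). Both also moved with the microglia markers, whose part was not tested.

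Among 16 kinases and transcription factors at which these routes meet, 7 were higher and 1 lower, with a median log2FC of 0.12. The rise of Irf7, the interferon-inducible factor that amplifies type I interferon genes, exceeded that of any sensor. Irf7 was at 21714, 24490 and 22212 normalized counts in KE and 1661, 2123 and 1215 in NT (log2FC 3.81, SE 0.15, adjusted p = 1.75e-08). Irf3, the factor that is present before stimulation, stood at 723 ± 85.8 and 841 ± 52.9 (SD, n = 3, log2FC -0.22, adjusted p = 0.0728), and Tbk1, the kinase that activates both factors, at 1428 ± 76.2 and 1368 ± 154 (SD, n = 3, log2FC 0.07, adjusted p = 0.546). Neither passed the test, although Irf3 was called lower without KE replicate 2 (log2FC -0.32, adjusted p = 0.0143) and the log2FC of Tbk1 was -0.03 without NT replicate 3. Tbkbp1 and Azi2, scaffolds of TBK1, were higher by 0.48 (adjusted p = 0.00194) and 0.45 (adjusted p = 1.21e-04). The 1 gene called lower was Irf5, a factor of myeloid cells, at 75.1 ± 21.8 against 402 ± 91.4 (SD, n = 3, log2FC -2.42, SE 0.22, adjusted p = 5.60e-06), in the direction of the microglia markers. Without KE replicate 2, or without NT replicate 3, 2 genes of this list were called lower.

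Of the 17 genes around PKR and eIF2α, 4 were higher and 4 lower, with a median log2FC of -0.09. The largest rises were those of Ppp1r15a and Ddit3. Ppp1r15a (GADD34), which brings the phosphatase that reverses eIF2α phosphorylation, was at 3441, 3606 and 3928 normalized counts in KE and 733, 822 and 791 in NT (log2FC 2.22, SE 0.07, adjusted p = 5.28e-09). Ddit3 (CHOP), a transcription factor induced by stress, was at 2261, 2366 and 2309 in KE and 484, 585 and 422 in NT (log2FC 2.23, SE 0.10, adjusted p = 4.07e-08). Both exceeded the log2FC of Eif2ak2 itself. Atf4 rose less (log2FC 0.46, adjusted p = 3.31e-05) and Ppp1r15b was lower (log2FC -0.28, adjusted p = 0.00174). Atf4 and Ppp1r15b were named after their values were seen. Eif2b2, a subunit of the exchange factor for eIF2, was higher by 0.51 (adjusted p = 3.46e-04), while its subunit Eif2b1 was lower (log2FC -0.39, adjusted p = 6.11e-04). Eif2s1, which encodes eIF2α, the substrate of PKR, was at 3611 ± 215 in KE and 4495 ± 362 in NT (SD, n = 3, log2FC -0.31, SE 0.07, adjusted p = 0.00375). The phosphorylation of eIF2α was not measured by this assay.

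The last list held 23 genes, most of which edit, cut or otherwise handle double-stranded RNA or related nucleic acids, along with 2 inflammasome sensors. Of these, 19 were tested, 4 were higher and 8 lower, and the median log2FC was 0.05. Zbp1, which senses left-handed double-stranded RNA, was at 2175, 2498 and 2257 normalized counts in KE and 415, 459 and 291 in NT (log2FC 2.59, SE 0.14, adjusted p = 1.17e-07). That rise was larger than that of any of the 8 sensors. Trex1, a DNA exonuclease, rose from 430 ± 78.2 to 1455 ± 125 (log2FC 1.77, SE 0.12, adjusted p = 7.22e-07), and Pnpt1, which degrades double-stranded RNA in mitochondria, from 1763 ± 184 to 3706 ± 200 (log2FC 1.08, SE 0.08, adjusted p = 9.66e-07, SD, n = 3). Subunits of RNase H2, which cuts RNA paired with DNA, were lower, with log2FC of -0.73 for Rnaseh2c (adjusted p = 2.62e-04) and -0.55 for Rnaseh2b (adjusted p = 5.64e-04). The largest falls of the list were those of 2 genes of low level, named after their values were seen, Nlrp1a (mean 2.53 in KE and 35.5 in NT, log2FC -3.42, SE 0.41, adjusted p = 4.54e-05) and Nlrp1b (mean 8.90 in KE and 67.9 in NT, log2FC -2.85, SE 0.31, adjusted p = 2.17e-05). At such levels the size depends on the pseudocount, and with a pseudocount of 5 the log2FC of Nlrp1a was -2.43 and that of Nlrp1b -2.42. They encode closely related inflammasome sensors, between which reads may be divided uncertainly, and they moved in the direction of the microglia markers, whose part was not tested.

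**Figure D4:**
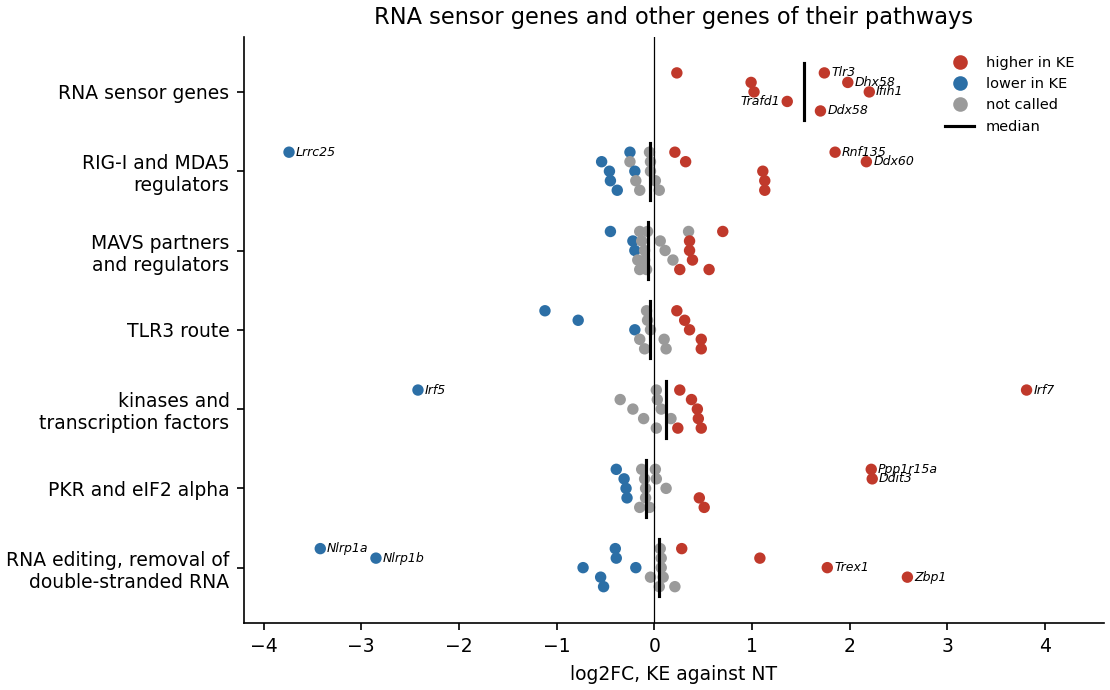
Log2FC of KE against NT (horizontal axis) of each tested gene among the RNA sensor genes and 6 lists of neighbouring genes, 1 point per gene, coloured by its call at a limma adjusted p under 0.05, with the bar at the median of a list. The sensors lie to the right (median 1.53) and the medians of the 6 lists lie between -0.09 and 0.12.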

How the data were processed

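Messenger RNA of 3 KE and 3 NT astrocyte cultures was sequenced from libraries made with a strand-specific kit. The authors deposited a signal per gene and culture, namely read counts from Salmon normalized by DESeq2, which removes the depth and rests on most genes being unchanged. The submitters' processing notes name Trim Galore, STAR, Salmon and DESeq2. The study's methods give GRCm39 with Gencode vM28, in a paragraph that names other samples and mentions astrocytes for their cutoff, while the notes list GRCh38, although the gene identifiers are those of mouse. The methods mention batches without naming them, so none was modelled. Values near whole multiples of 1 read made up 74.1% to 77.7% of low values (tolerance 0.1), so reads were not recovered and no count test was run. The depth is approximate and intervals reflect the spread between cultures.

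Genes whose mean reached 10 entered a limma fit (version 3.58.1, R 4.3.3) of log2(normalized count + 1) on group alone, with a variance trend. P-values are two-sided and adjusted by Benjamini-Hochberg over 15280 genes, and a log2FC on this scale understates changes of low genes. Log2FC and fold are those of the fit, and ratios were compared by exact permutation tests. Coordinates and exon lengths come from Gencode vM39 on GRCm39, which held 54749 of the 55357 identifiers, and promoters from RefSeq (GRCm38.p6). No exon of the 8 genes overlapped another annotated gene on the same strand. The members and lists were chosen with earlier results of these data known. In each list, the called genes with a mean of at least 100 and the 3 largest rises or 2 largest falls are named, with Braf, the 5 genes most like Ddx58, and marker lists as counts and sums. Further genes are given for their role in a route. On simulated data of 15280 genes for this comparison, the fit recovered 76% of 1.5-fold, 94% of 2-fold and 100% of 4-fold changes, with 8 false calls. The simulated spread was assumed, and only 45 to 50 genes were changed at each size. In the real data 51.3% of tested genes were called, so recovery there may differ. Alternatives were other pseudocounts (0.5 and 5), other filters, other scalings, no variance trend, the replicate number as a block, and leaving out each culture. A comparison of the proteins was not made here.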

Additional observations from a re-analysis of the deposited data

How the results depend on the processing

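Over 14 alternatives for each gene, the 8 sensor genes kept their direction, with log2FC of 1.59 to 1.76 for Ddx58, 2.05 to 2.28 for Ifih1, 1.78 to 2.08 for Dhx58, 1.69 to 1.82 for Tlr3, 0.92 to 1.04 for Eif2ak2, 0.95 to 1.08 for Adar and 1.27 to 1.45 for Trafd1, and the limma adjusted p of these 7 did not exceed 0.000594. Mavs ranged from 0.20 to 0.27 when 1 culture was left out, and lost its call without NT replicate 1 (adjusted p = 0.0537). The log2 ratio Eif2ak2/Adar, -0.03, lay between -0.09 and 0.04 when 1 culture was left out and changed sign without KE replicate 2 (exact p = 0.5). Of the kinases and transcription factors, 1 to 2 genes were called lower when 1 culture was left out. Fadd kept its call only in part, with adjusted p = 0.063 without a filter, 0.0955 under quantile normalization and 0.0512 with the replicate block. Ticam1 lost its call without a filter (0.0628) and without the variance trend (0.053), and Adarb1 was called higher under quantile normalization (0.0394). The log2FC of Tbk1 lay between -0.03 and 0.12 when 1 culture was left out, and changed sign without NT replicate 3. Allowing 1 mismatch in the ISRE core raised the genes with a match from 3 to 5 of 7, against 38.9% of all genes. With canonical transcript length, an alternative chosen after seeing the data, the level of Ddx58 relative to Eif2ak2 was 1.39 in KE and 0.85 in NT, and Mavs was no longer last in NT. The cause of these shifts was not tested. The replicate numbers were not taken as pairs, since deviations of same-numbered cultures correlated at 0.059 to 0.066, although each culture correlated best with its own number. With the replicate block, Mavs had an adjusted p of 0.0103 and Irf3 of 0.0439, 3 kinases and transcription factors were called lower, and 3967 genes in all were higher, against 3870 without it. KE replicate 2 had the lowest depth, so its low values are the least precise.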
